A study of Homo sapiens with 9 samples.

Results

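Axon guidance ligands and receptors were followed in differentiating human NT2 cells on 9 one-colour arrays. The members were all probes whose gene name on the array belongs to semaphorin classes 3 to 7, plexins, neuropilins, ephrins, Eph receptors, Slits, Robos, netrins, UNC5 receptors or DCC. They comprised 96 probes of 69 genes, out of 42405 probes with 34623 gene names. NT2 is an embryonal carcinoma line, a single tumour-derived line that takes on neural characters with retinoic acid. All cultures were kept for 4 days (96 h) in differentiation medium with 10 μM retinoic acid. Control cultures received no further compound. The others received paraoxon at 1 μM or mipafox at 5 μM, which are organophosphorus esterase inhibitors, and each treatment was measured on 3 arrays lettered A, B and C. The study's methods speak of technical replicates and the series' design text of biological ones, so the p-values measure only the spread between these arrays, which may be technical. The control arrays shared slide 1 with mipafox A, whereas the paraoxon arrays shared slide 2 with mipafox B and C. For paraoxon against control, slide and treatment cannot be told apart except through the mipafox arrays.

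Guidance molecules steer growing axons and migrating cells by attraction or repulsion. Class 3 semaphorins are secreted and act through neuropilins and plexins, while classes 4 to 6 span the membrane and class 7 is held by a lipid anchor. Ephrins and Eph receptors signal between touching cells, Slits repel through Robo receptors, and netrins act through DCC and the UNC5 receptors. Many of the same molecules act in early embryonic tissue before axons form, in boundary formation, cell sorting and vessel growth.

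The probes that the comparisons turn on are shown by the first 30 of their 60 bases, because 1 probe stands for 1 stretch of a transcript and different probes of a gene did not always differ in the same direction. All letters are in lower case, no base is singled out, and the strand is that of the transcript. Positions are those of the array files on hg19. The SEMA7A probe lies at chr15:74702365-74702424 (minus strand), the ROBO2 probes at chr3:77629168-77629227 and chr3:77684060-77684119 (plus strand), the EPHA4 probe at chr2:222290717-222290776 (minus strand) and the PLXNA3 probe at chrX:153701925-153701984 (plus strand). The EPHA2 probe, chr1:16451800-16455972 (minus strand), and the upstream EPHB4 probe, chr7:100401166-100402800 (minus strand), span more than 60 bases of the genome and so cross an intron, as did 10 of the 96 probes. The downstream EPHB4 probe lies at chr7:100400531-100400590 (minus strand). Whether the others lie in coding or untranslated sequence was not determined here.
SEMA7A, A_23_P106389: gccttgcatgtttattgaaggatgtttgct
ROBO2 upstream, A_33_P3278877: taattggtggattattcccaggtattcaat
ROBO2 downstream, A_24_P16326: gcccattttctactgacagtaacaccagtg
EPHA4, A_23_P108501: agatgcacggcagaatggttcccgtctgag
EPHA2, A_23_P149281: gccggctacactgccatcgagaaggtggtg
PLXNA3, A_33_P3413048: tgcatgagtttttctttgttcatggaatgt
EPHB4 upstream, A_23_P168443: agatctctgctgaggacctgctccgaatcg
EPHB4 downstream, A_33_P3216532: gctgctgccttcatattgaaggtttttgag

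Levels are given as log2 of the processed signal over the array's 75th percentile. A level of one probe is not set against that of another, except to point out dim signals. The 75th percentile itself ran from 802 to 1590 over the arrays, and 65.7% to 73.6% of all probes were well above background, the scanner software's mark of a signal clear of the local background. A probe was tested if it was so marked on every array of at least 1 treatment, which held for 29134 probes. No member spot was saturated. In these bulk cultures fewer cells of a type and less RNA per cell cannot be told apart. Marker genes were counted beside the label of the line. All 10 genes listed for undifferentiated embryonal carcinoma, all 10 for the retinoic acid response, 8 of 9 for neural progenitors and 6 of 9 for neurons were above background on all 9 arrays. Of 5 glial genes 3 were above background on every array and 1 on none. All 4 muscle genes, all 4 blood genes found on the array and 4 of 5 endothelial genes were also above background on every array. Of 5 liver and endoderm genes 2 were. Such counts therefore cannot tell whether the label is right.

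Most guidance genes were present in these cells. Of the 69 genes, 58 were tested, through 75 probes, and 56 had a probe above background on all 9 arrays. Ligands were represented by 33 tested genes of 35, receptors by 23 of 32 and neuropilins by 2 of 2. All 7 secreted semaphorins, all 3 Slits and all 3 ephrin-B ligands were above background on every array, as was SEMA7A. Among the 12 transmembrane semaphorins the exception was SEMA6D, above background on 1 array.

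The receptors were less complete. No array showed a signal above background for DCC, the attractive netrin receptor, for the Eph receptors EPHA3, EPHA5 and EPHA6, for PLXNB3, or for ROBO4, a Robo known from blood vessels. NTN1, the ligand of DCC, was above background on all 9 arrays, and so were the repulsive netrin receptors UNC5A and UNC5B. NEO1, a relative of DCC that also binds netrins, was above background on all 9 arrays too, with levels from -5.22 to -3.91. Of 5 PLXNA4 probes 1 was tested, 1 was above background on 2 arrays and 3 on none.

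Among the 21 member probes that were too dim to be tested, 6 were above background on a control array and on no exposed array. They were NTN3, PLXNC1 and 1 PLXNA4 probe, each on 2 control arrays, and SEMA6D, UNC5C and the second UNC5D probe, each on 1. The reverse, above background on an exposed array and on no control array, held for 1 member probe, EPHA7 on 1 mipafox array. Over all 13270 probes not tested, the shares were 7.51% for control arrays alone and 7.48% for exposed arrays alone, against 28.6% and 4.76% of the 21. These signals sit at the edge of detection, and no difference was tested for them in the main fit. The lowest share of all probes above background was that of an exposed array, paraoxon C, at 65.7%, with 74 member probes. The fewest member probes above background, 72, were on paraoxon B, where the share of all probes was 69.5%. The part of such differences in these counts was not tested.

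**Figure D1:**
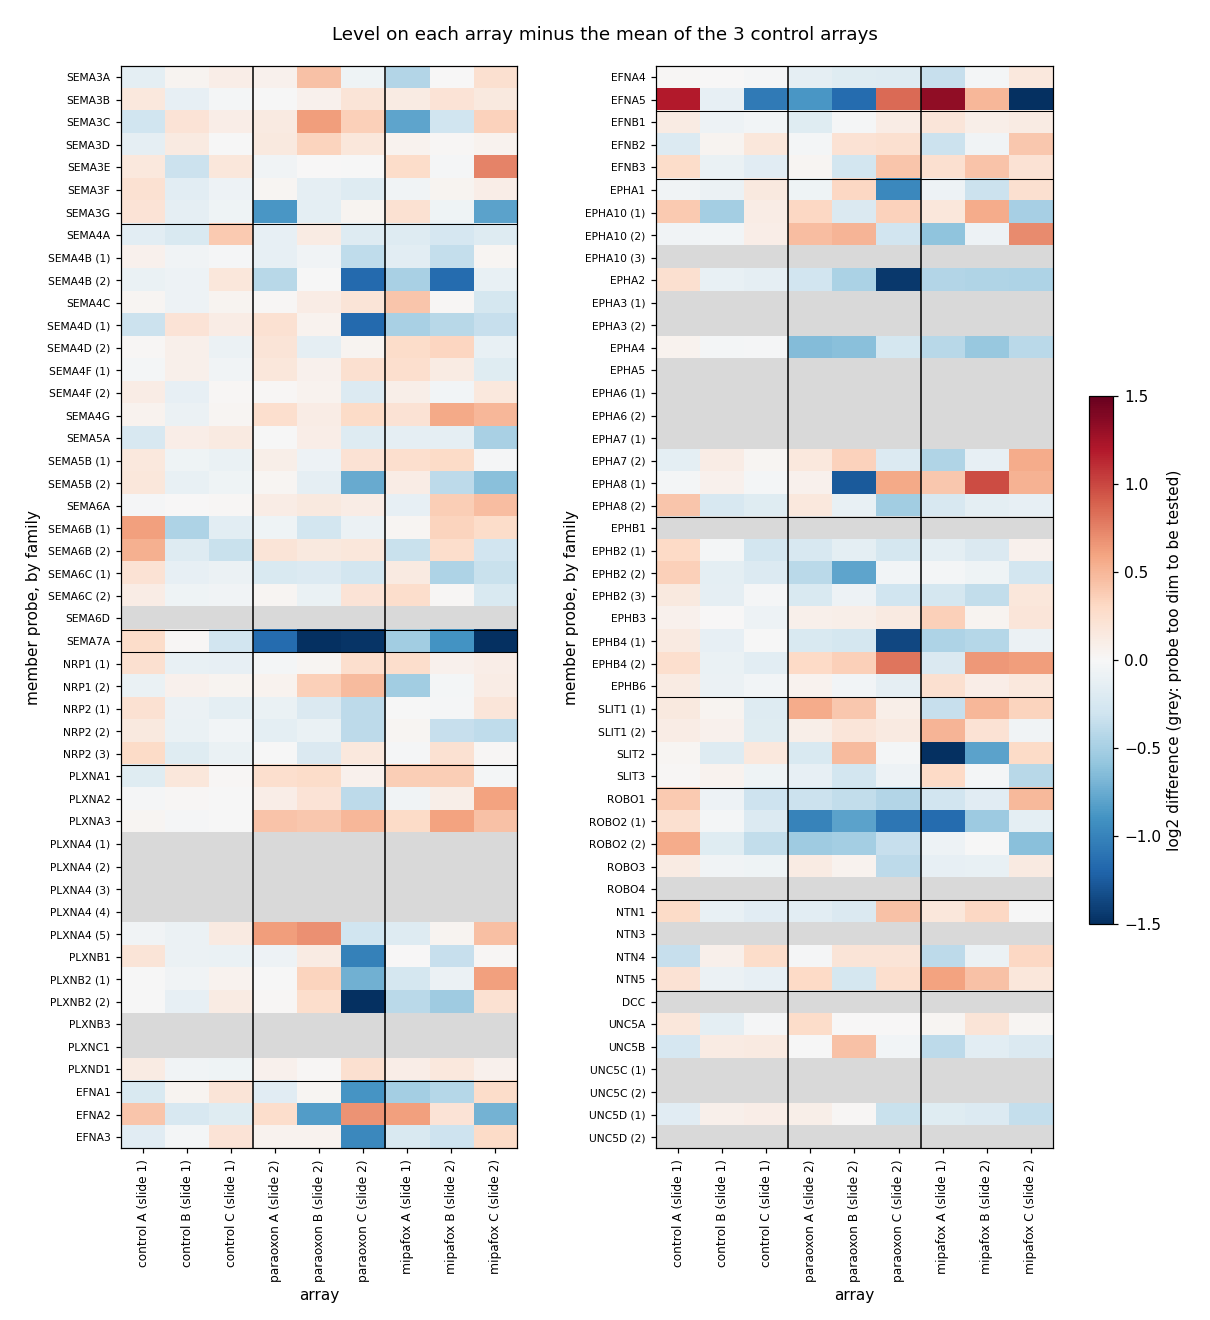
Level of each member probe on each of the 9 arrays minus the mean of the 3 control arrays, on the log2 scale, with probes grouped by family and arrays by treatment and slide. Grey rows are the 21 probes too dim to be tested, differences beyond the ends of the scale take the end colour, and the row for SEMA7A is blue on all 6 exposed arrays.

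For paraoxon against control, the question was whether exposure during early neural commitment altered gene expression. A call required a fold change beyond 2 together with an adjusted p under 0.05. In the limma fit of all 9 arrays 0 of the 75 member probes were called, as were 0% of all probes tested, and 5 member probes had an unadjusted p under 0.05 (6.67%, against 13.3% of all). SEMA7A had the largest difference of the members. The adhesion-type semaphorin SEMA7A promotes axon growth through integrins. Its levels were -4.24, -4.50 and -4.80 on the control arrays, -5.66, -6.11 and -5.98 on the paraoxon arrays, and -5.04, -5.40 and -6.13 on the mipafox arrays, given here and throughout in the order A, B, C. Every exposed array was below every control array. The log2 difference was -1.40 (SE 0.28, 95% interval -2.03 to -0.78, n = 3 and 3) with paraoxon, a 2.65-fold lower signal, at an adjusted p of 0.0790 from limma. With mipafox it was -1.01 (SE 0.28), a 2.02-fold lower signal, at an adjusted p of 0.451 from limma. The SEMA7A signal was dim on the exposed arrays, though above background on all 9 arrays. The first EPHA10 probe, at levels from -6.84 on control B to -5.78 on mipafox B, was above background on 5 arrays. The part of dimness in the SEMA7A difference was not tested.

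SEMA7A passed both limits for paraoxon in 3 of 21 alternative fits. The adjusted p from limma was 0.0283 when the control and paraoxon arrays were fitted alone, where 0.947% of all probes were called. It was 0.0354 without mipafox replicate A, again with 0.947% called, and 0.00315 with array weights, where 2.3% were called and the difference was -1.20. With slide as a block the difference shrank to -0.67, at an adjusted p of 0.650 from limma. Within slide 1, mipafox A lay 0.52 below the control mean on the log2 scale, and within slide 2 paraoxon differed from mipafox B and C by -0.15. On the authors' own processed values the difference was -0.49.

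ROBO2, a receptor for the repulsive Slits, came next. On its downstream probe the levels were -2.84, -3.11 and -3.29 on the control arrays, -4.08, -3.88 and -4.16 on the paraoxon arrays and -4.23, -3.62 and -3.23 on the mipafox arrays. All 3 paraoxon arrays were below all control arrays, and mipafox C lay within the control range. The difference with paraoxon was -0.97 (SE 0.25) on the log2 scale at an adjusted p of 0.132, and with mipafox -0.62 at an adjusted p of 0.669, both from limma.
Within slide 1, mipafox A was 1.15 lower than the control mean, and with slide as a block the paraoxon difference was -1.77 at an adjusted p of 0.510 from limma. The upstream ROBO2 probe had levels of -4.60, -5.34 and -5.52 on the control arrays, and -5.69, -5.67 and -5.50 on the paraoxon arrays. These 2 groups overlapped, because control C was below paraoxon C, and the difference was -0.47 (SE 0.26). The other Robo probes, ROBO1 at -0.38 and ROBO3 at -0.07, also had negative differences with paraoxon, so that all 4 tested Robo probes did, none of them past the limits.

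EPHA4, a receptor that binds ephrins of both classes and mediates repulsion, had tight controls at -2.84, -2.92 and -2.91. The paraoxon arrays read -3.54, -3.52 and -3.15 and the mipafox arrays -3.30, -3.46 and -3.29. All 6 exposed arrays were below all 3 control arrays, on both slides. The difference was -0.51 (SE 0.15) with paraoxon at an adjusted p of 0.170, and -0.46 (SE 0.15) with mipafox at an adjusted p of 0.536, both from limma. Mipafox A, on the slide of the controls, was 0.41 below their mean.

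EPHA2, a receptor expressed in early embryonic and epithelial cells, read -2.42, -2.77 and -2.79 on the control arrays, -2.94, -3.14 and -4.11 on the paraoxon arrays and -3.10, -3.11 and -3.12 on the mipafox arrays. The exposed arrays again lay below all controls. Paraoxon C carried much of the size: the difference with paraoxon was -0.74 (SE 0.28, adjusted p = 0.287 from limma) with that array and -0.38 without it.

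PLXNA3, a plexin that serves class 3 semaphorins with neuropilins, differed in the other direction. Its levels were -0.30, -0.35 and -0.34 on the control arrays, 0.11, 0.08 and 0.17 on the paraoxon arrays, and -0.05, 0.28 and 0.11 on the mipafox arrays. Every exposed array was above every control array. The difference was 0.44 (SE 0.13) with either compound, a 1.36-fold higher signal, at an adjusted p of 0.181 for paraoxon and 0.492 for mipafox from limma. On slide 1 alone, mipafox A was 0.28 above the control mean. With slide as a block the difference was 0.21 for paraoxon and 0.28 for mipafox, at adjusted p-values of 0.753 and 0.850 from limma.

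In all, 5 of the 75 tested member probes did not overlap between the 3 control and the 6 exposed arrays. PLXNA3 and the transmembrane semaphorin SEMA4G were higher in the exposed arrays, 2.67% of the members against 2.76% of all probes tested. SEMA7A, EPHA4 and EPHA2 were lower, 4% of the members against 3.97% of all. SEMA4G read -0.08, -0.22 and -0.11 on the control arrays, 0.12, -0.02 and 0.16 on the paraoxon arrays and 0.08, 0.44 and 0.36 on the mipafox arrays. Its difference was 0.22 (SE 0.14) with paraoxon and 0.43 (SE 0.14) with mipafox, at adjusted p-values of 0.574 and 0.559 from limma. With slide as a block the paraoxon difference of SEMA4G turned to -0.10 (adjusted p = 0.885 from limma) and that for mipafox was 0.21. These shares are close to those over all probes.

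**Figure D2:**
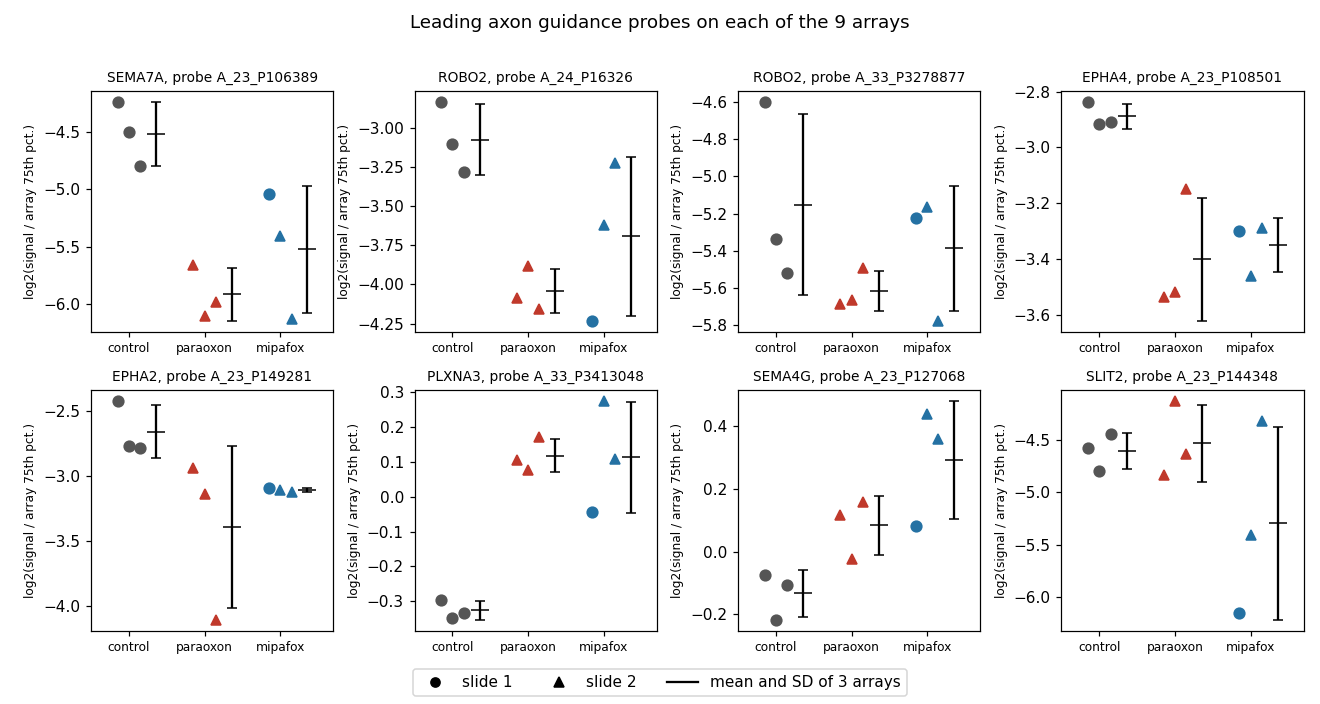
Level (log2 of signal over the array's 75th percentile) of 8 member probes on each array, with circles for slide 1, triangles for slide 2 and bars for mean and SD of the 3 arrays of a treatment. The exposed arrays lie apart from the control arrays for SEMA7A, EPHA4, EPHA2, PLXNA3 and SEMA4G. Mipafox C lies within the control range for the downstream ROBO2 probe, and both exposed groups overlap the controls for the upstream one. For SLIT2, mipafox A and B lie below all control arrays and mipafox C above them.

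The members as a list were described by counts and medians beside those of all probes, and the list was not tested as a set. With paraoxon, 34 tested member probes were higher and 41 lower than in control cultures, with a median log2 difference of -0.03 beside 0.01 over all probes tested. At an unadjusted p under 0.05, 1 member probe was higher (1.33%, against 7.31% of all probes) and 4 were lower (5.33%, against 6.02%). The one higher was PLXNA3, and the lower ones were SEMA7A, the downstream ROBO2 probe, EPHA4 and EPHA2. The 95% interval of the difference lay within a 2-fold change in either direction for 61 of the 75 probes (81.3%, against 77.5% of all probes). Among the members SEMA7A alone had an estimated difference above 2-fold, 1.33% of them against 2.76% of all probes.

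For mipafox against control 0 member probes were called in the limma fit of all 9 arrays, and 0% of all probes. At an unadjusted p under 0.05 there were 5 member probes (6.67%, against 6.96% of all). Of these, 2 were higher (2.67%, against 2.96% of all), namely PLXNA3 and SEMA4G, and 3 were lower (4%, against 4% of all), namely SEMA7A, EPHA4 and ROBO2. Over the 75 probes 39 were higher and 36 lower, with a median log2 difference of 0.01 beside 0.00 over all probes. The interval lay within a 2-fold change for 65. Since both comparisons use the same control arrays, the presence of PLXNA3, SEMA7A, EPHA4 and ROBO2 in both is not independent.

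SLIT2, a secreted ligand of the Robo receptors, was uneven among the mipafox arrays. Its levels were -4.58, -4.80 and -4.45 on the control arrays, -4.84, -4.13 and -4.63 on the paraoxon arrays, and -6.15, -5.41 and -4.33 on the mipafox arrays. Mipafox A and B lay below all controls and mipafox C above them, and the difference of -0.69 (SE 0.40) had an adjusted p of 0.821 from limma. The other Slits differed less: SLIT3 by -0.05 and the SLIT1 probes by 0.16 and 0.22 with mipafox. NTN5, a secreted member of the netrin family, differed by 0.41 (SE 0.20, adjusted p = 0.762 from limma) with mipafox, and the second SEMA4B probe by -0.59 (SE 0.33, adjusted p = 0.817 from limma).

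**Figure D3:**
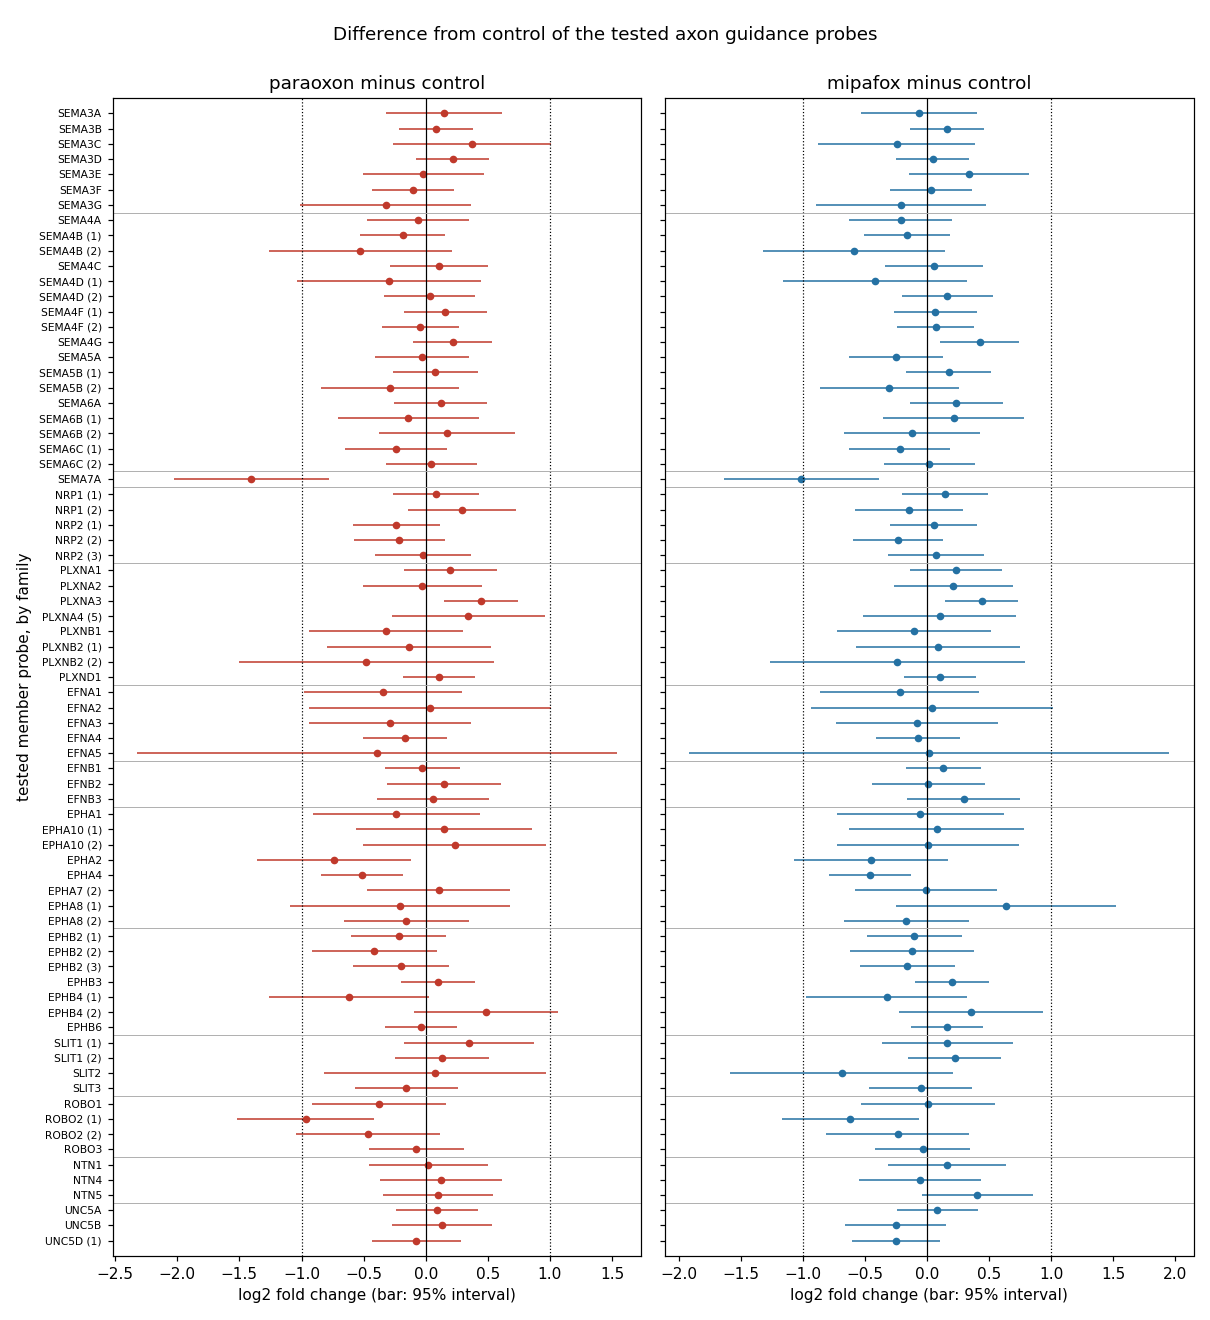
Log2 difference from control of the 75 tested member probes, by family, for paraoxon (left) and mipafox (right), with 95% intervals from limma. Dotted lines mark a 2-fold change; the points for SEMA7A lie beyond it at -1.40 and -1.01, and EFNA5 has the widest interval.

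By family, the secreted semaphorins had median differences of 0.08 with paraoxon and 0.03 with mipafox. SEMA3A, the classic collapsing factor of growth cones, read -3.37, -3.17 and -3.12 on the control arrays, -3.16, -2.78 and -3.29 on the paraoxon arrays and -3.66, -3.21 and -2.98 on the mipafox arrays, so that the groups overlapped. SEMA3A differed by 0.14 with paraoxon and -0.06 with mipafox. The transmembrane semaphorins had medians of -0.03 and 0.02. SEMA6A, which also acts as a plexin-A ligand, read between -1.85 and -1.81 on the control arrays, between -1.71 and -1.68 on the paraoxon arrays and at -1.95, -1.45 and -1.36 on the mipafox arrays. Its differences were 0.12 and 0.24.

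Of the semaphorin receptors, PLXNA3 is described above, and the neuropilins and PLXNA1 follow. The brightest NRP1 probe, for the co-receptor of SEMA3A, ranged from -0.44 to -0.09 on the control arrays, from -0.35 to -0.07 on the paraoxon arrays and from -0.26 to -0.06 on the mipafox arrays. The NRP2 probe read -0.10, -0.56 and -0.48 on the control arrays, -0.39, -0.59 and -0.22 on the paraoxon arrays and -0.40, -0.15 and -0.37 on the mipafox arrays, again with overlap. PLXNA1, a main signalling partner of the neuropilins, read above the control range of 2.42 to 2.77 on paraoxon A (2.86), paraoxon B (2.89), mipafox A (2.97) and mipafox B (2.97), and its differences of 0.20 and 0.23 (SE 0.16) were not called. Across the plexins the median was 0.04 with paraoxon, over differences from -0.48 to 0.44. With mipafox it was 0.10, over differences from -0.24 to 0.44.

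The ephrin-A ligands had a median difference of -0.29 with paraoxon, where 4 of 5 probes were lower and 1 was higher. For the ephrin-B ligands it was 0.06, with 2 of 3 probes higher and 1 lower. With mipafox the medians were -0.07 for ephrin-A and 0.13 for ephrin-B. EFNB1, a membrane ligand for EphB receptors, held 2.03, 1.83 and 1.87 on the control arrays, 1.73, 1.89 and 2.02 on the paraoxon arrays and 2.09, 1.997 and 2.03 on the mipafox arrays. The interval of its difference with paraoxon was -0.33 to 0.27. EFNB2, linked to vessels and to neural crest migration, had a difference of 0.15 with paraoxon and 0.01 with mipafox, over levels from 0.46 to 1.19. EFNA1, the ligand of EPHA2, read -2.57, -2.29 and -2.14 on the control arrays, -2.50, -2.31 and -3.22 on the paraoxon arrays and -2.85, -2.76 and -2.05 on the mipafox arrays. Its difference of -0.34 with paraoxon became -0.07 without paraoxon C. EFNA5, a repulsive cue in visual maps, spread from -7.72 to -4.63, with an SD of 1.13 among the control arrays, and was above background on 7 arrays. The interval of the EFNA5 difference with paraoxon was -2.33 to 1.54, which leaves its size and direction open.

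Among the Eph receptors, EPHB2 had 3 tested probes, with differences from -0.41 to -0.20 with paraoxon and from -0.16 to -0.10 with mipafox. Its brightest probe read -1.40, -1.90 and -1.96 on the control arrays, -2.16, -2.54 and -1.80 on the paraoxon arrays and -1.79, -1.81 and -2.02 on the mipafox arrays. EPHA1 ranged from -3.99 to -3.76 on the control arrays and from -4.87 to -3.59 on the paraoxon arrays, the lowest value being that of paraoxon C. Of the 8 tested EphA probes 5 were lower with paraoxon, and of the 7 EphB probes 5 were lower, with family medians of -0.18 and -0.20.

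In the Slit, netrin and UNC5 groups, ROBO1 read -3.81, -4.28 and -4.52 on the control arrays, -4.53, -4.57 and -4.64 on the paraoxon arrays and -4.49, -4.38 and -3.72 on the mipafox arrays. The paraoxon arrays lay just below the lowest control, with a difference of -0.38 (SE 0.24, adjusted p = 0.559 from limma). NTN1 read 0.17, -0.23 and -0.28 on the control arrays, -0.27, -0.33 and 0.34 on the paraoxon arrays and 0.06, 0.20 and -0.12 on the mipafox arrays. Its interval was -0.46 to 0.50 with paraoxon. UNC5B, a repulsive netrin receptor also found in vessels, differed by 0.13 with paraoxon and -0.25 with mipafox.

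Paraoxon and mipafox were also set against each other, at doses that differ (1 μM and 5 μM). In the limma fit 0 member probes and 0% of all probes were called, and the smallest adjusted p of a member was 0.998. With paraoxon 29 member probes were higher and 46 lower than with mipafox. Their median log2 difference was -0.08 beside 0.01 over all probes tested. At an unadjusted p under 0.05 there was 1 member probe higher with paraoxon (1.33%, against 2.87% of all probes) and 0 lower (0%, against 1.15%). That probe was the dimmer NRP1 probe, at -1.52, -1.22 and -1.10 on the paraoxon arrays and -2.09, -1.60 and -1.46 on the mipafox arrays, which overlapped. Its log2 difference was 0.44, with an interval of 0.01 to 0.87, while the brighter NRP1 probe differed by -0.06. SEMA3C, a secreted semaphorin of heart and nerve development, differed by 0.62 (interval -0.02 to 1.25), SLIT2 by 0.76 (-0.14 to 1.66) and UNC5B by 0.38 (-0.02 to 0.79). The first EPHA8 probe differed by -0.84 (-1.73 to 0.04) and was above background on 8 arrays. For 69 of the 75 probes the interval lay within a 2-fold change, and for the others the data allow a larger difference.

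Genes with several probes gave a view along the transcript. Of 15 genes with at least 2 tested probes, the probes had opposite signs in 6 for paraoxon and in 9 for mipafox. EPHB4, the receptor of EFNB2, was the one gene whose probes had opposite signs and differed by more than 1 on the log2 scale with paraoxon. Its upstream probe read -1.79, -2.05 and -1.93 on the control arrays, -2.16, -2.19 and -3.29 on the paraoxon arrays and -2.39, -2.35 and -2.01 on the mipafox arrays. Its downstream probe, 635 bases nearer the 3′ end, read 0.87, 0.52 and 0.45 on the control arrays, 0.91, 0.97 and 1.42 on the paraoxon arrays and 0.40, 1.26 and 1.24 on the mipafox arrays. With paraoxon the upstream probe differed by -0.62 (SE 0.29) and the downstream probe by 0.49 (SE 0.26), and without paraoxon C by -0.25 and 0.32. With slide as a block the downstream difference turned to -0.36. No single direction can therefore be given for EPHB4.

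Other transcripts showed the same kind of gap. The downstream-minus-upstream difference, relative to its control mean, was computed for all 2343 transcripts with tested probes at least 500 bases apart. Its median was -0.11, 0.05 and 0.06 on the control arrays, 0.20, 0.25 and 0.46 on the paraoxon arrays and 0.18, 0.28 and 0.28 on the mipafox arrays. All exposed arrays were above all control arrays, mipafox A on slide 1 included, and paraoxon C was highest. Of 9 member genes with such a pair, EPHB4 and SEMA5B exceeded all controls on all 6 exposed arrays, 22.2% of the members against 14.3% of all transcripts, and PLXNB2 did so on 5. On paraoxon C the values were 2.17 for EPHB4, 1.00 for PLXNB2 and 0.97 for SEMA5B. The mean of the paraoxon arrays was negative for 4 of the 9 genes, beside 19.5% of all transcripts. They were ROBO2 (-0.50), SEMA6B (-0.31), SEMA4F (-0.20) and NRP2 (-0.19), with ROBO2 at -0.47, -0.29 and -0.74 on the 3 paraoxon arrays. The part of this shift in the differences of SEMA7A, EPHA2, EPHA4 and PLXNA3, each measured by 1 probe, was not tested.

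**Figure D4:**
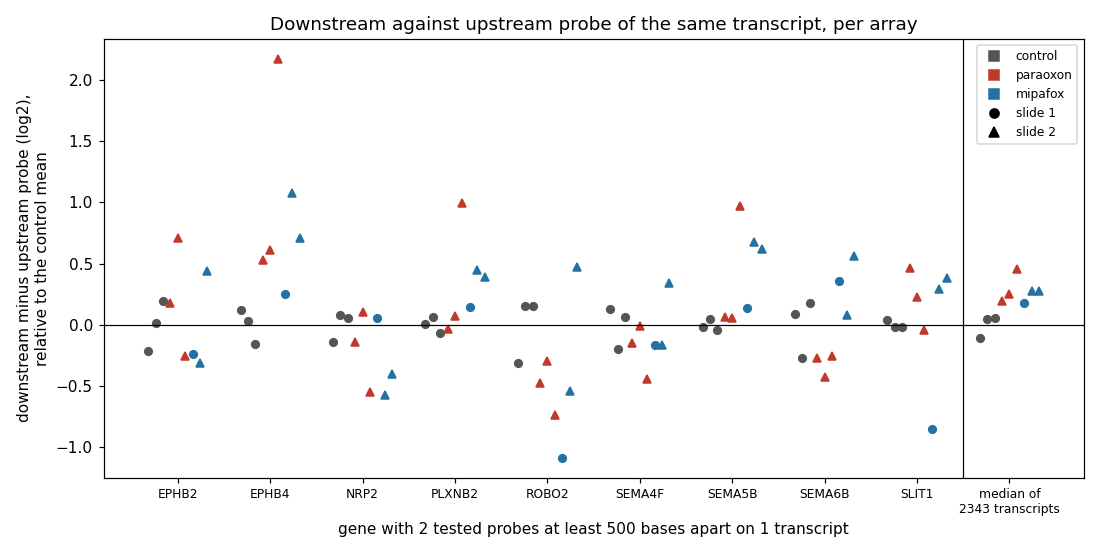
Downstream minus upstream probe on the log2 scale, relative to the control mean, for 9 member genes and as the median of 2343 transcripts, with 1 point per array coloured by treatment and shaped by slide. The EPHB4 point of paraoxon C stands at 2.17, and in the last column all exposed arrays lie above the control arrays.

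Paraoxon C, whose 75th percentile of 818 was among the dimmest, had the lowest value of all 9 arrays for 22 of the 75 member probes (29.3%, against 15.3% of all probes). Among them were EPHA1, EPHA2, the upstream EPHB4 probe, EFNA1, PLXNB1, 1 SEMA4D probe and both PLXNB2 probes. PLXNB2, a widely expressed plexin, read -2.00, -2.11 and -1.87 on the control arrays and -1.97, -1.73 and -3.71 on the paraoxon arrays with its second probe. With the brighter PLXNB2 probe the values were 1.05, 1.00 and 1.12 on the control arrays and 1.05, 1.39 and 0.34 on the paraoxon arrays. Without paraoxon C both PLXNB2 differences changed sign, from -0.48 to 0.14 and from -0.13 to 0.16.

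Within mipafox, array A was the only array on slide 1, so slide cannot be told apart from that 1 array. Mipafox A had the lowest 75th percentile of all arrays, 802, and 66% of all probes above background on it. The fits with slide as a block take the slide difference from the same mipafox arrays and so rest on mipafox A too. For the 75 member probes, the mean of mipafox B and C minus mipafox A had the same sign as paraoxon minus control for 40 (53.3%), beside 59.5% of all probes. Pearson's r across the member probes was 0.30, and 0.37 across all probes with a value. The 2 differences share no array, but the probes of a difference share its arrays and are not independent replicates.

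No probe on the array was called in the main fit (0% of all tested), so further genes of the pathway gave no call either. Of 23 co-receptors, further ligands and adhesion partners on the array, 20 were tested through 27 probes. With paraoxon 1 probe was higher (3.7%, against 7.31% of all probes) and 1 lower (3.7%, against 6.02%) at an unadjusted p under 0.05, and with mipafox 0 were (0%, against 2.96% higher and 4% lower). Of 52 intracellular effectors of guidance signals, 51 were tested through 77 probes. With paraoxon 1 of these was higher (1.3%, against 7.31%) and 8 were lower (10.4%, against 6.02%) at that limit. With mipafox 1 was higher (1.3%, against 2.96%) and 4 were lower (5.19%, against 4%). The median differences were -0.06 and 0.03. DPYSL2, the effector of SEMA3A also known as CRMP2, differed by 0.06 with either compound, and SRGAP1, a Robo effector, by -0.24 and -0.15.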

How the data were processed

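Total RNA labelled with Cy3 was hybridized to 9 Agilent human arrays, 3 per treatment. The authors deposited Feature Extraction 10.5.1.1 output, whose processed, mean and background signals are linear intensity values. They also deposited a table of log2 values made with the Agi4x44PreProcess package. For this work the processed signal was divided by the array's 75th percentile over 58717 spots and converted to log2, spots marked as outliers were dropped and spots of a probe were averaged. A probe counted as above background on an array where at least a share of 0.5 of its spots was. The 29134 probes passing the filter, each with 2 or more values in every treatment, entered a limma fit (version 3.58.1, R 4.3.3) with 1 mean per treatment, all 9 arrays and Benjamini-Hochberg adjustment over all probes. The fit was tested on simulated data. The number of arrays limits the precision. Slide, replicate letter, normalization, background correction, filters, array weights, variance model and each array left out were alternatives. All 96 transcript accessions matched RefSeq under the array's gene symbol.

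The members and lists were chosen with earlier results of these data known. Values are given for the 8 member probes with the smallest unadjusted p against control for each compound, the 5 for the direct comparison, the brightest tested probe of genes chosen by role, and genes whose probes differed in sign by more than 1. PLXNB1, SEMA4D, SEMA5B, the second PLXNB2 probe, the second ROBO2 probe and other members outside that rule were named after their values were seen. Figures were drawn with matplotlib.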

Additional observations from a re-analysis of the deposited data

How the results depend on the processing

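Of the 3 counts of member probes called, those for mipafox against control and for paraoxon against mipafox stayed at 0 under every alternative run. For paraoxon against control the count rose from 0 to 1, SEMA7A, with the 2 treatments fitted alone and with array weights, and ranged from 0 to 1 with each array left out. Member probes at an unadjusted p under 0.05 for paraoxon, 5 in the main fit, numbered 9 on the authors' processed values (12.2%, against 16.5% of all probes), 3 with slide as a block (4%, against 8.02%), 15 with array weights (20%, against 29.9%), and 4 to 7 with each array left out (5.33% to 9.33%, against 9.2% to 15.3%). For mipafox, 5 in the main fit, they numbered 8 with no filter on dim probes (8.33%, against 6.42% of all), 32 with array weights (42.7%, against 37.2%), and 3 to 11 with each array left out, 3 being without control B (4%, against 3.76%), 8 without mipafox A (10.7%, against 12.7%) and 11 without mipafox C (14.7%, against 8.39%). The member median for paraoxon moved from -0.03 to -0.16 with slide as a block and to 0.061 with array weights, and ranged from -0.08 to 0.03 with each array left out. The downstream EPHB4 difference with paraoxon reversed to -0.36 with slide as a block. The cause was not tested in any of these. The array weights, estimated gene by gene, were not examined for stability.

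With the replicate letter as a block no member was called, 0 in each comparison, and 5 (paraoxon, 6.67% against 12.5% of all) and 4 (mipafox, 5.33% against 6.53%) member probes had an unadjusted p under 0.05. Deviations from the treatment mean correlated between same-letter arrays at -0.60 to 0.57. The letter A pairs were all positive, from 0.17 to 0.26, and the B and C pairs had both signs. Whether the letters pair the arrays was not tested. With 3 arrays a treatment, the median 95% interval of a member reached 0.45 to either side on the log2 scale, and that of EFNA5 1.93. The 21 dim probes were not compared in the main fit.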

Other observations

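Markers of other cell types gave no call in either comparison with control, where 0% of all probes tested were called. Of 5 endothelial genes 4 were above background on all 9 arrays, and their summed linear signal over the 75th percentile ran from 2.51 to 2.80 on the control arrays, 2.21 to 2.35 on the paraoxon arrays and 2.20 to 2.77 on the mipafox arrays. TEK, the angiopoietin receptor, made up 83.3% to 88.8% of that sum on every array. The glial list summed to 0.362 to 0.396 on the control arrays, 0.375 to 0.421 on the paraoxon arrays and 0.411 to 0.437 on the mipafox arrays. The blood list summed to 0.167 to 0.177, 0.183 to 0.216 and 0.169 to 0.197, the liver and endoderm list to 0.462 to 0.597, 0.460 to 0.544 and 0.504 to 0.586, and the muscle list to 1.22 to 1.67, 1.23 to 1.62 and 1.12 to 1.4998, all in that order. Single probes of these lists reached an unadjusted p under 0.05, and are named here after their values were seen. PTPRC, the pan-leukocyte marker, differed by 1.15 on the log2 scale with paraoxon (adjusted p = 0.0764 from limma) and by 0.38 with mipafox, while 3 of its 5 probes were above background on no array. MYOD1, a muscle transcription factor, differed by 0.90 with paraoxon and 0.81 with mipafox (adjusted p = 0.132 and 0.462 from limma). One probe of the glial gene MBP differed by 0.54 with mipafox and one of the liver gene APOA1 by -0.49 with paraoxon (adjusted p = 0.578 and 0.362 from limma). The 9 neuronal genes, of which 7 were tested, summed to 14.1 to 17.1, 13.1 to 15.5 and 15.8 to 16.4 on the control, paraoxon and mipafox arrays. Most of that sum came from TUBB3 on every array. The 9 neural progenitor genes summed to 110 to 119.5, 99.6 to 114 and 97.5 to 121, in the same order. Signals of the 10 embryonal carcinoma genes summed to 126 to 136 on the control arrays, 124 to 128 on the paraoxon arrays and 103 to 159 on the mipafox arrays. The part of these in the members' differences was not tested.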
